A study of Homo sapiens with 6 samples.

Results

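Antisense RNAs are transcripts read from the DNA strand opposite a named gene, and in RNA-seq of A549 cells with and without added TIPARP, 276 of the 1090 listed antisense entries were expressed. The members were chosen by symbol and by measured level. The symbol had to end in -AS1 (261 members), -AS2 (13) or -AS3 (2), and the TPM had to be above 2 in at least 1 of the 6 libraries. TPM scales reads by transcript length and by library. Of the other listed antisense entries, 700 were at the lowest listed value in all 6 libraries and 114 were above it without passing 2 TPM. The antisense RNAs made up 276 of the 13181 entries of any kind that passed the same limit. Each was set beside its sense gene, the gene named before the hyphen.

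Antisense RNAs of this kind are mostly long noncoding RNAs, spliced and polyadenylated like messenger RNAs. Some start beside the promoter of the sense gene and run away from it, some face the sense gene from its far end, and others lie inside it. Single members are known to act on the neighbouring gene, to bind proteins or microRNAs elsewhere in the cell, or to be host transcripts for small RNAs, whereas for most no role is known.

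A549 cells come from a human lung adenocarcinoma. A549-TIPARP cells were a stable line made by retroviral transduction with pMXs-TIPARP, and A549-GFP cells were the control line transduced with pMXs-GFP, with 3 libraries each. TIPARP is a poly(ADP-ribose) polymerase family enzyme, also called PARP7, that is induced by dioxin through the aryl hydrocarbon receptor. Whether each line was a pool or a clone is not given in the sources used here, and each condition was a single line, so line and treatment cannot be told apart. Nothing says that the 3 libraries of a line came from separate transductions, so p-values measure the spread between these libraries, which may be technical.

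TIPARP was 6.79, 11.4 and 3.68 TPM in the 3 A549-GFP libraries and 131, 90.5 and 123 TPM in the 3 A549-TIPARP libraries, so the labels and the transduced gene go together. All 9 epithelial and A549 markers passed 2 TPM, all 5 endothelial markers were at the floor in every library, and of 5 fibroblast markers only LUM was above it, at 1.09 TPM in 1 library. Among leukocyte markers, CD14 and LYZ were detected, with a summed level of 3.73 to 10.9 TPM in A549-GFP and 6.72 to 12.5 TPM in A549-TIPARP, while PTPRC and CD3E were at the floor. A549-GFP replicate 2 stood apart. Its members lay at the median 0.35 log2 units above their own mean over the 6 libraries, against 0.28 for all analysed entries, and it held the highest value for 134 of the 276 members. The summed TPM of the members was 3322 in that library and 2446 to 2729 in the other 5. Values whose direction turns without this library are marked where they are printed.

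**Figure D1:**
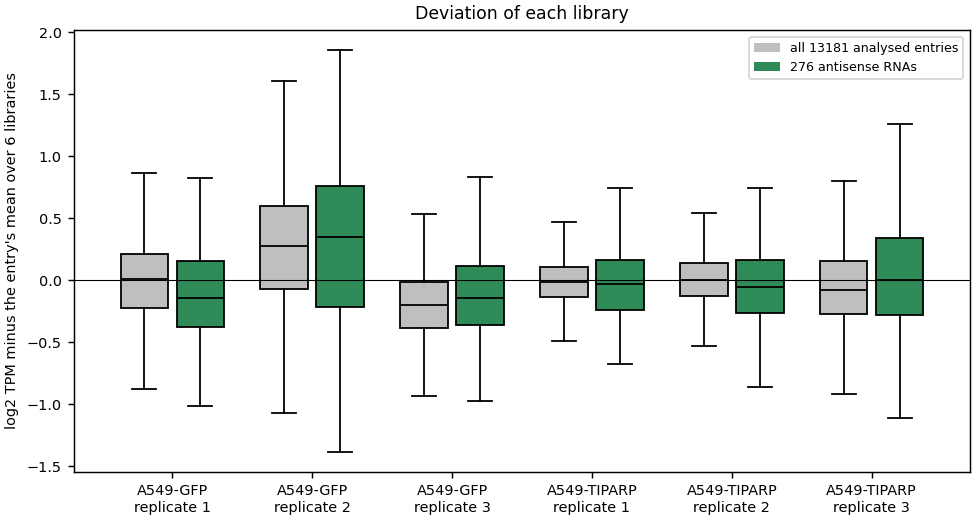
Deviation of log2 TPM in each library from the entry's mean over the 6 libraries (y axis, log2 units), for all 13181 analysed entries (grey) and the 276 antisense RNAs (green). Boxes are quartiles with the median and whiskers reach 1.5 times the box length, and the antisense RNAs of A549-GFP replicate 2 have a median of 0.35 where the other 5 libraries lie between -0.14 and 0.00.

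The antisense RNAs were low in abundance. Their median level was 2.88 TPM, against 14.3 TPM over all analysed entries, with quartiles of 1.77 and 5.69 TPM. Only 45 members (16.3%) had a geometric mean above 10 TPM, compared with 59.3% of all analysed entries, and 93 members (33.7%) were under 2 TPM on that mean. The deposited values have a floor at 1 TPM, and 64 members were at that floor in at least 1 library. The SD of log2 TPM within a line had a median of 0.44 for the members and 0.33 for all entries. Depth is unknown, because the tables hold no counts, so no counting error could be attached to these levels.

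Membership itself depended on the line for some RNAs. The limit was passed in both lines by 211 members, in A549-GFP only by 41 and in A549-TIPARP only by 24. Members that entered through 1 line were favoured to be higher there, so their differences are described below with no p-value of their own, and counts of p-values that include them are not read as support. Just inside the limit were SEMA3F-AS1, SSSCA1-AS1 and MCM3AP-AS1, with highest values of 2.01, 2.03 and 2.04 TPM. Just outside were UBAC2-AS1, ENO1-AS1 and OSGEPL1-AS1, with 2.00, 1.99 and 1.98 TPM.

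Most antisense RNAs differed little between the lines. The log2 fold change, the mean log2 TPM in A549-TIPARP minus that in A549-GFP, had a median of -0.07 in the members and -0.07 in all analysed entries, and 239 members (86.6%) lay within 1.5-fold, against 91.3% of all entries. Past 2-fold, 7 members (2.54%) were higher in A549-TIPARP, against a background of 1.53% of all analysed entries, and 1 member (0.362%) was lower, against 0.432%. These 8 comprise 4 higher among the RNAs that passed in both lines, 3 higher among those that passed in A549-TIPARP only and 1 lower among those that passed in A549-GFP only. In limma, with Benjamini-Hochberg adjustment over all 13181 entries, no member had an adjusted p under 0.05 (0.0152% of all entries did), and the smallest adjusted p among those that passed in both lines was 0.856. At an unadjusted limma p under 0.05 there were 14 members (5.07%), 11 higher and 3 lower, against 3.85% of all entries. Of these, 3 higher and 1 lower had passed 2 TPM in 1 line only. The libraries of the lines did not overlap for 18 members that were higher in A549-TIPARP (6.52%, background 5.36%) and for 12 that were lower (4.35%, background 3.54%). Of these, 7 higher and 3 lower had passed in 1 line only, and the shares were near the background. Without A549-GFP replicate 2 the median log2 fold change was 0.10 in the members and 0.05 in all entries, 9 members were past 2-fold higher and 2 lower (2.91% and 0.296% of all entries were), and 28 members (10.1%) had an unadjusted limma p under 0.05, as did 10.5% of all entries.

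**Figure D2:**
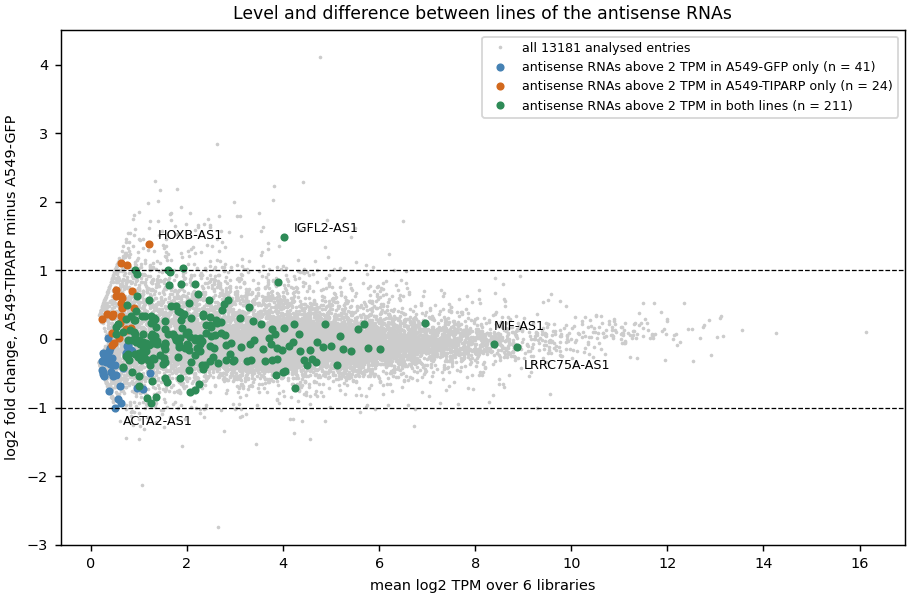
Mean log2 TPM over the 6 libraries (x axis) against the log2 fold change, A549-TIPARP minus A549-GFP (y axis), for all 13181 analysed entries (grey) and the 276 antisense RNAs, coloured by the line in which they passed 2 TPM. Dashed lines mark 2-fold, and IGFL2-AS1 lies at 1.48 and ACTA2-AS1 at -1.01 while the 2 most abundant members, LRRC75A-AS1 and MIF-AS1, lie at -0.12 (0.18 without A549-GFP replicate 2) and -0.08.

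With all 6 libraries, the largest difference among the members above the floor in every library was that of IGFL2-AS1, a noncoding RNA named for IGFL2, which encodes a small secreted protein of the insulin growth factor-like family. IGFL2-AS1 was 16.0, 6.36 and 9.01 TPM in the A549-GFP libraries and 45.9, 22.1 and 19.8 TPM in the A549-TIPARP libraries. The 3 A549-TIPARP libraries were the 3 highest, although A549-GFP replicate 1 came near the lowest of them. The mean was 2.80-fold higher in A549-TIPARP (log2 fold change 1.48, with within-line SDs of 0.67 and 0.66, n = 3 each), with a limma p of 0.0069 and an adjusted p of 0.856. Without A549-GFP replicate 2 the log2 fold change was 1.18, below the 1.28 of BAIAP2-AS1. The RNA lies on the minus strand of chromosome 19 (chr19:46189029-46203160, hg38). IGFL2 lies on the plus strand at chr19:46143106-46161298 and shares no exon base with it. IGFL2 and its neighbour IGFL1 were at the floor in all 6 libraries, so the antisense RNA was the member of the pair that was detected.

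HOXB-AS1, a long noncoding RNA of the HOXB cluster of homeobox genes, was 1.58, 1.86 and 1 TPM in A549-GFP and 3.73, 3.08 and 4.54 TPM in A549-TIPARP. No A549-GFP library passed 2 TPM and all 3 A549-TIPARP libraries did. It thus entered the members through A549-TIPARP alone, and its 2.61-fold higher mean (log2 fold change 1.38, within-line SDs of 0.47 and 0.28) is a description that this choice favours. The lowest A549-GFP library was at the floor and enters that mean as 1 TPM. HOXB-AS1 lies on the plus strand at chr17:48543551-48551250 and overlaps HOXB2 and HOXB3 on the other strand. HOXB2 was 1.88, 2.29 and 1.84 TPM in A549-GFP and 2.56, 2.26 and 3.67 TPM in A549-TIPARP, a log2 fold change of 0.47 with overlapping libraries. HOXB3 had a log2 fold change of 0.10. Of the 4 higher members that passed in both lines, only IGFL2-AS1 stayed past 2-fold whichever library was left out.

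Another 4 of the members past 2-fold start within 2000 bases of their sense gene's start, on the other strand. That arrangement is called head to head here, whether or not the genes overlap. DARS-AS1 shares 305 exon bases with DARS, while DENND5B-AS1, BAIAP2-AS1 and TM4SF1-AS1 share none with their sense genes. DENND5B-AS1 was 1.16, 1 and 1 TPM in A549-GFP and 2.32, 1.34 and 3.69 TPM in A549-TIPARP. DENND5B, which encodes a DENN domain protein that acts on Rab GTPases, was 18.0, 16.8 and 11.6 TPM and then 10.3, 11.1 and 11.8 TPM. The antisense mean was thus 2.15-fold higher while the sense log2 fold change was -0.46, and the partners differed by 1.56 log2 units, a value that rests on 2 A549-GFP libraries at the floor. DARS-AS1 was 1.22, 1 and 1.28 TPM in A549-GFP and 2.22, 2.31 and 2.82 TPM in A549-TIPARP. DARS, the cytoplasmic aspartyl-tRNA synthetase, had a log2 fold change of -0.16, so the partners differed by 1.24 log2 units. DENND5B-AS1 and DARS-AS1 passed 2 TPM in A549-TIPARP only, and their differences are a description that this choice favours.

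BAIAP2-AS1, whose sense gene encodes the actin scaffold IRSp53, was 1.95, 3.71 and 2.56 TPM in A549-GFP and 5.50, 4.17 and 7.02 TPM in A549-TIPARP, a 2.06-fold higher mean. BAIAP2 itself was 4.13, 3.07 and 4.03 TPM and then 5.02, 5.89 and 5.66 TPM, a log2 fold change of 0.57. For neither partner did the lines overlap, and the difference between them was 0.47 log2 units. An exact permutation test of that difference over the 6 libraries (two-sided) gave p = 0.3, where 3 against 3 libraries allow no p under 0.1. TM4SF1-AS1 was 1.12, 1.03 and 2.08 TPM in A549-GFP and 1.85, 2.85 and 3.73 TPM in A549-TIPARP, where A549-TIPARP replicate 1 fell below A549-GFP replicate 3. TM4SF1, a tetraspanin-like surface protein abundant in lung carcinoma cells, was between 618 and 838 TPM, with a log2 fold change of 0.23. The limma adjusted p was 0.994 for TM4SF1-AS1 and 0.966 for BAIAP2-AS1.

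The remaining members past 2-fold face their sense gene tail to tail, so that their far ends meet or overlap. ABHD11-AS1, which GENCODE lists as the pseudogene BICDL3P, was 1.97, 2.30 and 2.16 TPM in A549-GFP and 4.89, 2.98 and 5.42 TPM in A549-TIPARP. The A549-GFP libraries agreed closely (SD 0.11 on the log2 scale) and all lay below the A549-TIPARP libraries. ABHD11, a mitochondrial hydrolase, had a log2 fold change of -0.12, which was 0.24 without A549-GFP replicate 2. ACTA2-AS1 was 2.22, 1 and 3.69 TPM in A549-GFP and at the floor in all 3 A549-TIPARP libraries. Its log2 fold change of -1.01 depends on that floor, to which A549-GFP replicate 2 also fell. That value is thus neither a bound nor a measured ratio. Leaving this library out gave -1.52. Dropping another control library brought the difference back inside 2-fold, to -0.57 (replicate 3 dropped) or -0.94 (replicate 1 dropped). ACTA2, smooth muscle actin, was highest where its antisense RNA was at the floor within A549-GFP, with 13.1, 34.7 and 17.6 TPM, and was 18.3, 27.2 and 38.8 TPM in A549-TIPARP. ACTA2 thus had a log2 fold change of 0.42, and of 0.82 without A549-GFP replicate 2. The value was 0.12 without A549-GFP replicate 1 and 0.16 without A549-TIPARP replicate 3. The limma adjusted p was 0.966 for ABHD11-AS1.

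**Figure D3:**
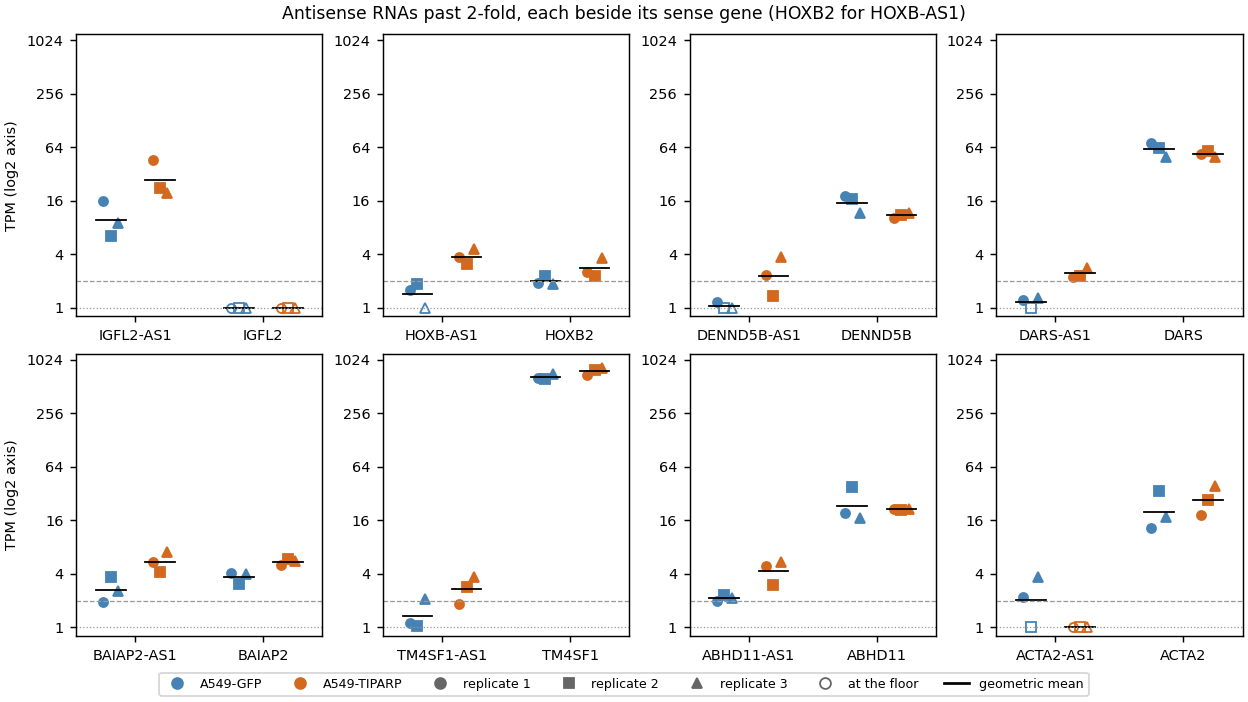
TPM (log2 axis) in each of the 6 libraries for the 8 antisense RNAs past 2-fold and, beside each, its sense gene (HOXB2 for HOXB-AS1, since no gene is named HOXB). Blue is A549-GFP and orange A549-TIPARP, marker shapes are replicates, open markers are at the floor of 1 TPM, bars are geometric means and the dashed line is 2 TPM, and IGFL2-AS1 reaches 45.9 TPM where IGFL2 is at the floor in every library.

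The start regions of these head to head and cluster RNAs are shown because the members are grouped here by where they start. RefSeq windows on GRCh38.p14 run from 250 bases before the RefSeq start to 50 after it, with the bases after that start in capitals. The gene positions given above are from GENCODE. For HOXB-AS1 the whole window lies inside the GENCODE span given above, so RefSeq and GENCODE place its start differently. Windows were at hand for HOXB-AS1 (chr17:48544101-48544400, plus strand), DENND5B-AS1 (chr12:31589673-31589972, plus strand), BAIAP2-AS1 (chr17:81034670-81034969, minus strand, listed as BAIAP2-DT) and TM4SF1-AS1 (chr3:149377528-149377827, plus strand).
HOXB-AS1: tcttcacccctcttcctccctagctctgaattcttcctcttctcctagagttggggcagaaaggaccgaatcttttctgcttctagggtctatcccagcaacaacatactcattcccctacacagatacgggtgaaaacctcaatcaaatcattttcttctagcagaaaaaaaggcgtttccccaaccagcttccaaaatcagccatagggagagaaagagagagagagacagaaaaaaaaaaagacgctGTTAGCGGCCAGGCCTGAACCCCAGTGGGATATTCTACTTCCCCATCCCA
DENND5B-AS1: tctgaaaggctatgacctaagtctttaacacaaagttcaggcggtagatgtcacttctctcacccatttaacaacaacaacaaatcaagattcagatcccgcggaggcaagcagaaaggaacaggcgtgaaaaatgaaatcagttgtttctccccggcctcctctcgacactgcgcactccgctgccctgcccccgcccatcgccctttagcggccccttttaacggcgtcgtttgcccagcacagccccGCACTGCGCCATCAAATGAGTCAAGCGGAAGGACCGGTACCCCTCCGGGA
BAIAP2-AS1: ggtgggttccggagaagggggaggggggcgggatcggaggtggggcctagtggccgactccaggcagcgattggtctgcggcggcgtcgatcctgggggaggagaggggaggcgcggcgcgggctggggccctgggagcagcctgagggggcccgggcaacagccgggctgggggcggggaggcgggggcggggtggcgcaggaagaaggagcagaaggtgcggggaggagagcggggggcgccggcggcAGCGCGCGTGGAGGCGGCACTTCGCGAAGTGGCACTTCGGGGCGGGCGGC
TM4SF1-AS1: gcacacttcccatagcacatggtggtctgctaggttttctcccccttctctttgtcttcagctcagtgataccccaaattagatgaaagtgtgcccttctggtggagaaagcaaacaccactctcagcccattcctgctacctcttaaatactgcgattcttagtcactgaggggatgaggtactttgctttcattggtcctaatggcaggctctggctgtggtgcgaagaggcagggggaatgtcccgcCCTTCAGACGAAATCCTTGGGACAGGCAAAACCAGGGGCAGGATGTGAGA
The annotated starts of TM4SF1 and TM4SF1-AS1 are 86 bases apart, so that the window of the antisense RNA also holds the start of the sense gene. The starts are 241 bases apart for BAIAP2, 976 for DARS and 1213 for DENND5B.

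The windows were searched on both strands for GCGTG, the core bound by the aryl hydrocarbon receptor, and for the core letters of a promoter box, TATAAA. DENND5B-AS1 holds GCGTG beginning 126 bases before its start and BAIAP2-AS1 holds it within the transcribed bases, while HOXB-AS1 and TM4SF1-AS1 hold neither string. Over the 259 windows of the 214 members that matched RefSeq, 51.4% held GCGTG and 5.41% TATAAA. Over all 35116 windows, of 27305 genes not chosen by expression, the shares were 36.5% and 11.5%. The members' windows were also richer in G and C, with a median of 66.0% against 58.7%, and 74.1% of them had a CpG observed over expected ratio above 0.6, against 48.8% of all windows. The members were chosen for expression and the other windows were not, so the shares are not like for like. The parts of base composition and of that choice in the motif shares were not tested.

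A sense gene was listed under a unique symbol for 266 members, 9 had no entry of that name and 1 symbol stood on several entries. The 266 members named 261 different sense genes. In 232 pairs the sense gene also passed 2 TPM. Its median level in these was 14.9 TPM and that of the antisense RNA 2.90 TPM, and the sense gene was 4.85-fold higher at the median pair. The antisense RNA was the higher partner in 31 pairs (13.4%). CBR3-AS1 is an example, with 44.0 to 60.4 TPM where CBR3, a carbonyl reductase, had 4.65 to 16.5 TPM. Across pairs the levels were weakly related, with a Spearman rho of 0.187 over 232 pairs that share the same 6 libraries.

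The partners' differences between lines were also weakly related. The log2 fold changes had the same sign in 140 of 232 pairs (60.3%), and since the antisense RNA was lower in 133 pairs and the sense gene in 151, these shares alone would give 52.2%. Both percentages are descriptions, with no test. They were both higher in A549-TIPARP in 44 pairs and both lower in 96, and they differed in sign in 55 pairs with the antisense RNA higher and 37 with it lower. Without A549-GFP replicate 2 the more common direction turned, with 92 pairs both higher and 46 both lower. Pearson r across pairs was 0.217 and Spearman rho 0.243, given as descriptions because the pairs share their libraries and normalization. Without A549-GFP replicate 2, r was 0.147. No pair had both partners past 2-fold. The only sense gene past 2-fold was SEMA3F, a semaphorin, where 1.53% of all analysed entries were higher and 0.432% lower. SEMA3F had 2.01, 1.88 and 2.20 TPM in A549-TIPARP and the floor value in every A549-GFP library. SEMA3F too passed the limit through A549-TIPARP only, so its difference is a description that this choice favours.

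By position, of the 266 pairs 118 were head to head, 88 tail to tail, 48 had the antisense RNA inside the sense gene, 4 were placed otherwise and 8 could not be placed. Both partners passed 2 TPM in 114, 72 and 38 pairs of the first 3 groups. Pearson r was 0.291 head to head, 0.133 tail to tail and 0.206 inside the sense gene. The median level of the antisense RNA was 2.92 TPM head to head, 2.90 TPM tail to tail and 2.47 TPM inside the sense gene. No difference between these groups was tested.

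**Figure D4:**
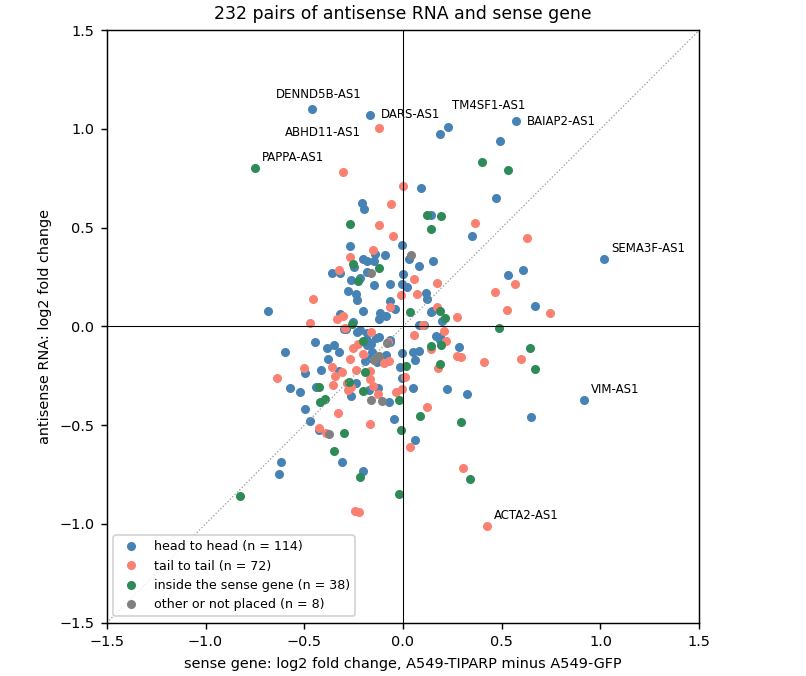
Log2 fold change between the lines, A549-TIPARP minus A549-GFP, of the sense gene (x axis) and of the antisense RNA (y axis) for the 232 pairs in which both passed 2 TPM, coloured by position. The dotted line marks equal values, and VIM-AS1 and ACTA2-AS1 lie low at the right while DENND5B-AS1, DARS-AS1, ABHD11-AS1 and PAPPA-AS1 lie high at the left.

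Among the pairs whose partners differed most, VIM-AS1 and PAPPA-AS1 have not yet been described. VIM encodes vimentin, the intermediate filament protein of mesenchymal cells. VIM was 396, 230 and 496 TPM in A549-GFP and 592, 725 and 704 TPM in A549-TIPARP, with no overlap, a log2 fold change of 0.91 and a limma adjusted p of 0.856. VIM-AS1 was 2.91, 2.85 and 2.26 TPM and then 1.65, 2.58 and 2.02 TPM, a log2 fold change of -0.37 with overlapping libraries. The partners differed by 1.29 log2 units with VIM the higher, a description, since the pair was chosen for that difference. PAPPA encodes a protease that cleaves IGF binding proteins. PAPPA was 26.7 TPM in A549-GFP replicate 2 and 3.90 to 8.66 TPM in the other 5 libraries, and PAPPA-AS1 was at the floor in that library and 3.83 to 7.45 TPM in the others. The PAPPA-AS1 difference of 1.55 log2 units from its partner therefore rested on that library. Without it the log2 fold changes were 0.06 for PAPPA-AS1 and 0.02 for PAPPA.

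A stranded library kit was used, but whether the counting used the strand is not given in the sources used here. Without strand, reads from overlapping exons of an antisense RNA and its sense gene cannot be told apart. Of 258 members placed beside an annotated sense gene, 176 had exon bases that also lie in a sense exon, with a median share of 4.14% over all 258, and in 21 the share was over 50%. The ratio of the partners over the 6 libraries was therefore examined in the 178 pairs that were above the floor in every library. The SD of the log2 ratio had a median of 0.46 and was under 0.1 in 3 pairs.

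MIF-AS1 followed its sense gene almost exactly. It was 339, 296 and 410.0 TPM in A549-GFP and 372, 349 and 269 TPM in A549-TIPARP, and MIF, which encodes the cytokine macrophage migration inhibitory factor, was 1298, 1138 and 1581 TPM and then 1430.3, 1347 and 1038 TPM. MIF-AS1 was thus between 25.9% and 26.1% of MIF in all 6 libraries, and the SD of the log2 ratio was 0.0037, while each partner alone had an SD of 0.22. The pair is tail to tail and 46.5% of the MIF-AS1 exon bases lie in MIF exons. The levels of MIF-AS1 and MIF are not treated here as independent measurements. NCBP2-AS2, which shares no exon base with NCBP2 and is listed by GENCODE as protein-coding, had the next smallest SD, 0.076, and CERS6-AS1, with 69.6% of its exon bases shared, had 0.087. These last 2 pairs were chosen after their values were seen.

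The spread of the ratio was also set beside the share of shared bases. The median SD of the log2 ratio was 0.48 in 55 pairs without shared exon bases, 0.52 in 55 pairs that shared up to 10%, 0.41 in 51 pairs that shared 10 to 50% and 0.51 in 13 pairs that shared more. It was under 0.2 in 3, 4, 2 and 2 pairs of these groups. Pearson r of the log2 fold changes was 0.324 in 72 pairs without shared exon bases and -0.23 in 19 pairs that shared over 50%. These 19 include PAPPA-AS1, whose difference from its partner rested on A549-GFP replicate 2. They also include ACTA2-AS1, whose value depends on the floor, so the negative r is not read as opposite movement of overlapping pairs. All PAPPA-AS1 exon bases lie in PAPPA exons, and it was at the floor in the library where PAPPA was highest. The part of shared reads in these values was not tested.

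**Figure D5:**
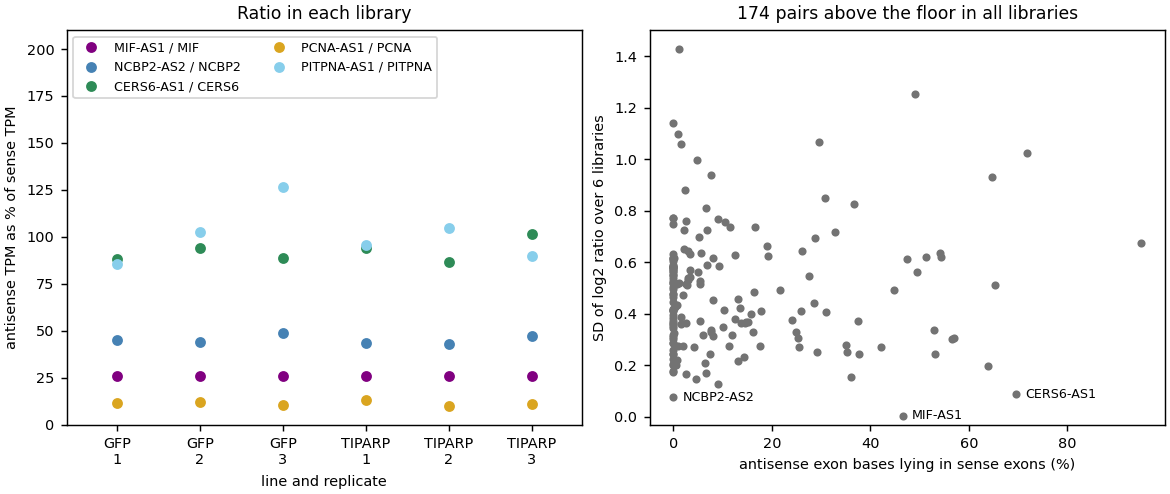
Left, antisense TPM as a percentage of sense TPM (y axis) in each of the 6 libraries for 5 pairs, where MIF-AS1 lies between 25.9% and 26.1% in every library. Right, the share of antisense exon bases lying in sense exons (x axis, %) against the SD over 6 libraries of the log2 antisense to sense ratio (y axis) for the 174 placed pairs that were above the floor in all libraries.

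None of the 10 most abundant antisense RNAs had an unadjusted limma p under 0.05, and the libraries of the lines overlapped for 9 of them, against backgrounds of 3.85% of all entries with such a p and 8.91% without overlap. LRRC75A-AS1, also called SNHG29, is a host transcript of small nucleolar RNAs. It was 361, 740.4 and 430.3 TPM in A549-GFP and 406, 390.3 and 566 TPM in A549-TIPARP, and LRRC75A was at the floor throughout. The log2 fold change was -0.12, and 0.18 without A549-GFP replicate 2, the highest library. This RNA alone made up 14.8% to 22.3% of the summed TPM of the 276 members, and MIF-AS1 8.91% to 16.2%. MMP24-AS1, listed by GENCODE as the protein-coding gene MMP24OS, was 81.8 to 184 TPM, and PCNA-AS1, named for the replication clamp, was 46.1 to 94.1 TPM. FGD5-AS1, CBR3-AS1, AGAP2-AS1, PITPNA-AS1, UGDH-AS1 and VPS9D1-AS1 completed the 10 highest, at 23.7 to 68.4 TPM. The lines did not overlap for AGAP2-AS1, with 44.0, 47.8 and 42.8 TPM in A549-GFP and 48.2, 49.7 and 50.4 TPM in A549-TIPARP, but the log2 fold change was 0.14. Its sense gene AGAP2, a GTPase-activating protein, was above the floor in 1 library only, at 1.04 TPM.

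Within 2-fold, 6 further members that passed in both lines had an unadjusted limma p under 0.05, and their adjusted p lay between 0.966 and 0.994. BMPR1B-AS1, beside a bone morphogenetic protein receptor, was 2.55, 2.35 and 1.90 TPM in A549-GFP and 3.17, 5.26 and 5.17 TPM in A549-TIPARP. PIK3CD-AS2, inside the gene of the p110 delta subunit of PI3 kinase, was 10.7, 10.9 and 11.6 TPM and then 21.0, 13.5 and 27.1 TPM. The mean was higher in A549-TIPARP for both, with log2 fold changes of 0.98 and 0.83. MELTF-AS1 and PTOV1-AS1 were higher as well, by 0.79 and 0.57. The sense genes BMPR1B, PIK3CD, MELTF and PTOV1 had 0.19, 0.40, 0.53 and 0.14. Without A549-GFP replicate 2 these sense values were 0.46, 0.39, 0.74 and 0.23. ZNF674-AS1 was 5.29, 7.63 and 4.82 TPM and then 3.92, 3.55 and 2.95 TPM, lower in every A549-TIPARP library. ZNF674 had a log2 fold change of -0.63, or -0.09 without A549-GFP replicate 2. BRE-AS1, also taken by the naming rule but above 2 TPM in A549-GFP only, had a log2 fold change of -0.87, and BABAM2, the present name of the BRCA1-A complex gene BRE, one of 0.04. SLC12A9-AS1 had -0.85 with overlapping libraries, and SLC12A9, a cation-chloride cotransporter family member, -0.02, or 0.33 without A549-GFP replicate 2.

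The HOX clusters held 6 members. HOXB-AS1 was described above, and the other 5 had log2 fold changes between -0.58 and 0.43 with overlapping libraries. HOXA-AS2 was the most abundant, at 8.70 to 11.3 TPM, beside HOXA3 at 13.6 to 18.4 TPM. HOXC-AS1 was 4.43 to 7.42 TPM in A549-GFP and 6.09 to 11.6 TPM in A549-TIPARP, and HOXD-AS2 was 3.06 to 6.66 TPM and then 2.38 to 3.91 TPM. HOXB-AS3, which overlaps HOXB3 to HOXB6, had a log2 fold change of -0.04, or 0.07 without A549-GFP replicate 2. HOXA-AS3 was between the floor and 2.14 TPM. HOXB-AS1 and HOXB-AS3 thus differed in size although both lie in the HOXB cluster, and their difference was not tested.

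Of 26 well studied antisense RNAs, 15 passed 2 TPM and 9 were at the floor in all 6 libraries. Of the 15, HOXB-AS1, which passed in A549-TIPARP only, was the 1 past 2-fold, a description that this choice favours. Over all analysed entries 1.53% were past 2-fold higher and 0.432% lower. The 15 had a median log2 fold change of -0.14, and of -0.01 without A549-GFP replicate 2. OIP5-AS1, also called cyrano, had a geometric mean of 23.6 TPM and a log2 fold change of -0.15 (-0.58 without A549-GFP replicate 2), and FGD5-AS1 54.4 TPM and -0.14. CDKN2B-AS1, the RNA of the INK4 locus, EGFR-AS1, NKX2-1-AS1 and LOXL1-AS1 were among those at the floor. Of 6 antisense RNAs named for matrix or cytokine genes, LAMA5-AS1 alone passed, with 5.86, 6.41 and 4.85 TPM in A549-GFP and 6.03, 3.67 and 3.77 TPM in A549-TIPARP. The list was short, and MIF-AS1, MMP24-AS1, MMP25-AS1, MATN1-AS1 and TGFB2-AS1, whose sense genes are also matrix or cytokine genes, passed without being in it. Their log2 fold changes ran from -0.24 (MATN1-AS1, 0.16 without A549-GFP replicate 2) to 0.28 (TGFB2-AS1). Without A549-GFP replicate 2, MMP24-AS1 had 0.58, MMP25-AS1 0.48, TGFB2-AS1 0.24 and MIF-AS1 -0.19. TIPARP-AS1, the antisense RNA of the transduced gene, was at the floor in 5 libraries and 1.45 TPM in A549-TIPARP replicate 3, so it was not a member.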

How the data were processed

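RNA of A549-GFP and A549-TIPARP cells was sequenced, with 3 libraries each. Per the labels, libraries were made with a TruSeq Stranded mRNA kit, and the authors mapped paired-end reads to hg38 transcripts in Strand NGS, leaving its parameters at their defaults. The authors deposited 1 table per library holding log2 TPM of 53826 entries with a floor at 0 (1 TPM). The software version, the annotation release and the use of strand in counting are not given in the sources used here. No counts were analysed, so depth is unknown and neither counting intervals nor detection limits were computed.

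Lines and replicate numbers came from the sample titles. Entries with TPM above 2 in at least 1 library were analysed, as the study filtered them. The fold change was the difference of mean deposited log2 TPM, which for RNAs at the floor depends on that floor. limma 3.58.1 (R 4.3.3) with a variance trend was run on log2(TPM + 1) of all 13181 entries, with Benjamini-Hochberg adjustment over all of them. It was tested on simulated data. Pairs were compared with an exact permutation test (scipy 1.17.1). Positions, strands and exons came from GENCODE release 44, which matched 267 members, of which 259 are lncRNAs. Head to head means starts within 2000 bases.

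Named were members past 2-fold, up to 10 others with the smallest unadjusted p under 0.05, the 10 of highest mean log2 TPM, the 6 pairs with the largest difference between partners, those nearest the limit and members of 2 lists. The HOX group and the pairs of steadiest ratio were added after values were seen. The members and lists were chosen with earlier results of these data known. Alternatives were other pseudocounts, filters, rescaling and fold thresholds, limma without a trend, the replicate block and each library left out. 1 marker of the leukocyte list is not reported here.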

Additional observations from a re-analysis of the deposited data

How the results depend on the processing

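No member reached an adjusted p under 0.05 in limma under any setting run, and between 6 and 28 members (2.17% to 10.1%) had an unadjusted p under 0.05 when 1 library was left out, as did 1.92% to 10.5% of all entries. The count of 7 members past 2-fold higher became 1 with a pseudocount of 1 (where all entries went from 1.53% to 0.592%), 4 of 212 among members above the floor in every library (0.945% of such entries) and 20 at 1.5-fold (5.70% of all entries). The 1 member past 2-fold lower became 0 with a pseudocount of 1 (0.152% of all entries) or 0.1 (0.349%). The count lower was also 0 with TPM above 2 in at least 3 libraries (0.372% of such entries). Among members above the floor in every library it was 0 too (0.312% of such entries). It was 3 with arithmetic means (1.08% of all entries) and 17 at 1.5-fold (3.02%). Leaving out 1 library gave 3 to 9 higher and 1 to 4 lower, with 1.73% to 2.91% and 0.296% to 1.52% of all entries. The count higher was 3 without A549-TIPARP replicate 3, and the count lower was 2 without A549-GFP replicate 1 or 2, 3 without A549-TIPARP replicate 2 and 4 without A549-GFP replicate 3 or A549-TIPARP replicate 3. The 30 members without overlap became 43 to 74, with 74 without A549-GFP replicate 2, 63 without A549-GFP replicate 3 and 49 without A549-TIPARP replicate 2. Fewer libraries make non-overlap easier, and the share in all entries also went from 8.91% to between 11.7% and 30.7%. The median log2 fold change ranged from -0.14 to 0.10, and was above 0 only without A549-GFP replicate 2. The same-sign pairs ranged from 126 (without A549-TIPARP replicate 3) to 149 (without A549-GFP replicate 3) with 1 library left out. Pearson r ranged from 0.147 to 0.219 with 1 library left out. It was 0.269 with TPM above 2 in at least 3 libraries, 0.276 among pairs above the floor in every library and 0.324 in pairs without shared exon bases, a setting chosen after seeing the data. The cause of these shifts was not tested.

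The titles number the experiments 1 to 3 in both lines. Deviations of same-numbered libraries from their line means had correlations of 0.452, -0.516 and -0.379, which differ in sign. With so few libraries per line the deviations depend on each other. They cannot settle whether same-numbered libraries came from the same experiment. With the replicate block, 0 members had an adjusted p under 0.05 (smallest 0.999) and 11 (3.99%) an unadjusted p under 0.05, as did 3.14% of all entries.

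Levels near the floor of 1 TPM limit what these values can show, since neither counts nor depth were at hand. Only IGFL2-AS1, BAIAP2-AS1, TM4SF1-AS1 and ABHD11-AS1 among the 8 members past 2-fold were above the floor in every library.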

Other observations

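Antisense RNAs named for other gene families, grouped by symbol after the values were seen, showed no common size of difference. The 8 members named for ZNF zinc finger genes had log2 fold changes from -0.75 to 0.70 (A549-TIPARP minus A549-GFP), with a median of 0.01. The 6 named for SLC solute carriers ranged from -0.85 to 0.63. The 6 named for TMEM transmembrane genes ranged from -0.55 to 0.22. The mean was lower in A549-TIPARP for 3 of the 8, 5 of the 6 and 5 of the 6, against 58.0% of all 276 members. Without A549-GFP replicate 2 it was lower for 3, 4 and 1 of them, against 38.0% of all members. None of these was past 2-fold.

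Both members of a shared sense gene could be compared in 5 cases. PTOV1-AS1 had a log2 fold change of 0.57 and PTOV1-AS2 one of -0.10, beside 0.14 for PTOV1. PAXIP1-AS1 and PAXIP1-AS2 had -0.31 and -0.34, beside -0.13 for PAXIP1. MNX1-AS1 and MNX1-AS2 had 0.07 and 0.49, beside 0.14 for MNX1, the homeobox gene. DLGAP1-AS1 and DLGAP1-AS2 had -0.37 and -0.12 while DLGAP1 was at the floor in all 6 libraries. ZNF32-AS1 and ZNF32-AS2 had 0.08 and -0.19. Without A549-GFP replicate 2 the sign turned for PTOV1-AS2 (0.16), ZNF32-AS1 (-0.06) and ZNF32-AS2 (0.02). These pairs were not tested against each other.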
